A study of Homo sapiens with 6 samples.

Results

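The thioredoxin-interacting protein TXNIP, its arrestin-domain relatives ARRDC1, ARRDC2, ARRDC3 and ARRDC4, and the glucose-sensing transcription factors MLXIP (MondoA) and MLXIPL (ChREBP) were followed in cells labelled A498 after knockdown of RNF26, an E3 ubiquitin ligase of the endoplasmic reticulum membrane. These 7 genes were taken by name from a table of 61541 Ensembl genes, and all 7 were among the 14766 genes expressed highly enough to be tested. RNA sequencing libraries fell into 2 groups of 3: one carried a control short hairpin RNA (shRNA) and the other an shRNA that targets RNF26. The labels describe A498 as a kidney clear cell carcinoma line, and RPMI-1640 medium with serum was used for both groups. Whether each replicate came from its own culture is not stated, and the p-values reflect the spread among these libraries alone, which may be technical. The sources used here do not give the glucose content of the medium, the time from knockdown to harvest or the number of hairpin sequences.

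TXNIP and the ARRDC proteins form the alpha-arrestin family, adaptors that bring membrane proteins to ubiquitin ligases of the NEDD4 family and so steer their endocytosis. TXNIP also binds thioredoxin and lowers glucose uptake by promoting internalisation of glucose transporters. MLXIP and MLXIPL are basic helix-loop-helix proteins that pair with MLX, respond to glucose 6-phosphate and bind carbohydrate response elements, which consist of E-box-like motifs separated by a short spacer. TXNIP and ARRDC4 are among the best known targets of MLXIP.

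Each library held 16682871 to 18021718 gene counts. RNF26 itself was counted 31901 to 35331 times per control library and 1175 to 1274 times per knockdown library, which matches the labels. Across the 14766 tested genes, 41.4% were called in the edgeR quasi-likelihood test at an adjusted p below 0.05, 18.9% higher (2785 genes) and 22.6% lower (3332 genes) in the knockdown libraries. With scaling by total counts alone the split was 4449 higher and 2269 lower, and with upper-quartile scaling 3742 and 2681. Of 18 markers of renal epithelium and clear cell carcinoma, 14 averaged below 1 CPM (counts scaled to a common library size, here also adjusted by the trimmed mean of M values, TMM), and UMOD had no count in any library. The summed level of these 18 markers was 42.4 to 44.3 CPM in control libraries and 56.2 to 58.8 CPM in knockdown libraries. MME (26.2 to 34.6 CPM) and EGLN3 (8.82 to 15.0 CPM) were called higher, while PAX8 and LHX1, the other markers above 1 CPM, were lower in mean and not called. All 12 squamous epithelial markers were above 1 CPM, among them KRT5 at 583 ± 21.3 CPM (mean ± SD, n = 3) and TP63 at 173 ± 7.37 CPM in control libraries. Their summed level was 6849 to 7302 CPM in control and 4538 to 4652 CPM in knockdown libraries. The part of these markers in the results below was not tested, and in bulk RNA fewer cells of a type and less RNA per cell cannot be told apart.

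To show what the start sites of the members look like, the 250 bases before each annotated start were taken from RefSeq (GRCh38.p14, not the hg19 build of the submitters' processing notes). All 7 members matched, with 10 start sites in all. TXNIP, ARRDC2 and ARRDC3 had 2 each. The windows were searched on both strands for the E-box CACGTG, for the E-box-like CACGNG (which includes the E-box) and for a spaced pair, CACGNG repeated in the same orientation after 5 bases. The windows printed here belong to TXNIP and ARRDC4, the members with the largest falls, and to ARRDC2, which was not called. They are written 5′ to 3′ on the strand of the gene with every E-box-like match in capitals.
TXNIP, chr1:145996580-145996829, minus strand: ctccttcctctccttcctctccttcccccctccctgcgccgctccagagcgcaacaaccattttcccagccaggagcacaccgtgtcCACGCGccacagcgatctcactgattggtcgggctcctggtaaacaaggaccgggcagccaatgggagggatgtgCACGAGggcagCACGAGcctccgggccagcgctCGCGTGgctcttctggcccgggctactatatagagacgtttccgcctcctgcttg
ARRDC4, chr15:97960453-97960702, plus strand: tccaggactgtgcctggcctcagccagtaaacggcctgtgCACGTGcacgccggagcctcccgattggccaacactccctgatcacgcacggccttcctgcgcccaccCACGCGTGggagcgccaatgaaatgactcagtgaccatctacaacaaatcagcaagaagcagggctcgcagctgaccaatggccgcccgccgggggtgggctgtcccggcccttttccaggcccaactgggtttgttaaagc
ARRDC2, chr19:18000874-18001123, plus strand: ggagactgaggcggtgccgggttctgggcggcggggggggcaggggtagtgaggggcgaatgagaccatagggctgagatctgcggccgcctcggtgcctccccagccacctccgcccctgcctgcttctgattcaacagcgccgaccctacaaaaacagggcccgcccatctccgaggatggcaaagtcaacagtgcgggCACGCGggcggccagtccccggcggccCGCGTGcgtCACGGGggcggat

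The TXNIP window held 4 E-box-like matches, and the pair from -88 to -72 relative to the start, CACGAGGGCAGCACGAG, was the only spaced pair among the 10 member windows. Of all 35116 RefSeq windows of the same length, 16 held that pattern (0.0456%). The ARRDC4 window held an E-box from -210 to -205 and overlapping E-box-like matches on opposite strands from -142 to -135, but no spaced pair. E-boxes were present in 6.34% of all windows and E-box-like matches in 26.7%. ARRDC2 had 3 E-box-like matches before its first listed start and ARRDC3 had 1. The windows of ARRDC1, MLXIP and MLXIPL, and the other windows of TXNIP, ARRDC2 and ARRDC3, held none. A match describes letters and not binding, and no match says only that these letters are not in the window.

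**Figure D1:**
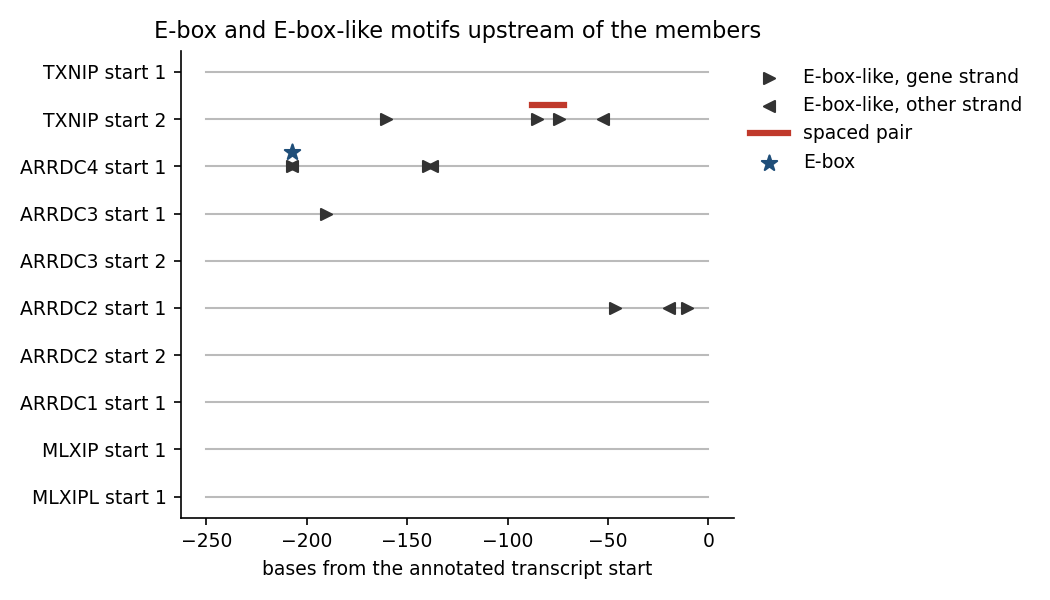
Positions of E-box and E-box-like motifs in the 250 bases before each of the 10 annotated starts of the 7 genes (x axis, bases from the start). Triangles are E-box-like matches pointing along or against the gene, the star is the E-box of ARRDC4 and the red bar is the spaced pair of TXNIP from -88 to -72.

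TXNIP and ARRDC4 fell by nearly the same factor, ARRDC3 fell less, and ARRDC1 and ARRDC2 were not called. TXNIP (ENSG00000265972) was counted 6102, 5950 and 5823 times in controls against 2284, 2265 and 2212 times after knockdown. Every knockdown library lay below every control library. Groups that did not overlap, in either direction, were seen in 50.1% of all tested genes. On the TMM scale the level went from 356 ± 5.96 to 127 ± 3.20 CPM (3 libraries each, ± SD), a 2.81-fold difference (edgeR log2 fold change -1.49 with SE 0.040, adjusted p = 4.54e-16). The knockdown level was 35.6% of the control level, with a 95% interval of 33.6% to 37.8%. TXNIP ranked 29 among the tested genes by p, and 155 genes (1.05%) had a lower log2 fold change. In GENCODE 29 no other gene overlaps TXNIP.

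ARRDC4 (ENSG00000140450), an alpha-arrestin that like TXNIP restrains glucose uptake, was counted 751, 732 and 714 times in controls against 271, 288 and 277 times after knockdown. The groups were again fully apart, as in 50.1% of all tested genes. The coefficient of variation was 1.70% in control and 2.74% in knockdown libraries, less than counting noise alone gives at these counts. A spread taken from so few libraries can be this low by chance. This is a fall from 43.7 ± 0.745 to 15.7 ± 0.430 CPM, 2.79-fold lower (edgeR log2 fold change -1.48 with SE 0.071, adjusted p = 3.21e-12). That left 35.8% of the control level (95% interval 32.3% to 39.7%). Within libraries, the count ratio of TXNIP to ARRDC4 was 8.14 ± 0.0166 in the control group and 8.09 ± 0.297 in the knockdown group (exact permutation test, two-sided, p = 0.90, the smallest possible p being 0.10). The knockdown ratios spanned 7.86 to 8.43 and enclosed the control ratios of 8.13 to 8.16. The spreads of these ratios have the same limit as those of ARRDC4.

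ARRDC3 (ENSG00000113369), an adaptor for membrane proteins such as integrin beta4, was counted 2257, 2263 and 2339 times in controls against 1482, 1378 and 1555 times after knockdown. The groups did not overlap, as in 50.1% of all tested genes. The knockdown libraries were more spread than the control libraries, at 9.41% against 4.75% in coefficient of variation. Mean CPM went from 137 ± 6.49 to 82.9 ± 7.80, 1.65-fold lower (edgeR log2 fold change -0.72 with SE 0.059, adjusted p = 1.12e-08). The 95% interval of the remaining level, 55.6% to 66.1%, lay apart from that of TXNIP. The count ratio of TXNIP to ARRDC3 went from 2.61 ± 0.109 to 1.54 ± 0.111 without overlap, and its exact permutation p was 0.10, the smallest possible with 3 libraries against 3 (0.30 after Benjamini-Hochberg adjustment over 3 ratios). ARRDC3 shares exons on the opposite strand with ARRDC3-AS1, which had only 4 to 12 counts per library.

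ARRDC1 (ENSG00000197070), which recruits the vesicle protein TSG101 to the plasma membrane and so forms budding microvesicles, gave 983, 837 and 840 counts without and 979, 956 and 921 counts with the knockdown. The groups overlapped. Its level was 52.9 ± 3.12 CPM in control and 53.5 ± 1.58 CPM in knockdown libraries (edgeR log2 fold change 0.02 with SE 0.059, adjusted p = 0.84), and the 95% interval allows 92.9% to 110% of the control level. The sign of this value changed without control replicate 2, control replicate 3 or knockdown replicate 1. ARRDC1 shares exons with AL590627.2 on the same strand and overlaps ARRDC1-AS1 on the opposite strand, and without a stated strand setting the reads of both cannot be told apart. ARRDC1-AS1 had 38.3 ± 3.46 and 37.1 ± 1.29 CPM and was not called.

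ARRDC2 (ENSG00000105643), a less studied alpha-arrestin, gave 491, 480 and 445 counts without and 479, 485 and 388 counts with the knockdown. The counts overlapped, but after TMM scaling the lowest control library (27.1 CPM) stood just above the highest knockdown library (27.0 CPM), a separation seen in 50.1% of all tested genes. The level was 28.2 ± 1.06 CPM against 25.3 ± 2.38 CPM (edgeR log2 fold change -0.15 with SE 0.080, adjusted p = 0.13). The interval allows 79.9% to 101% of the control level. ARRDC2 overlaps the uncharacterised gene AC020904.3 on the opposite strand.

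MLXIP (ENSG00000175727), the glucose sensor for which TXNIP and ARRDC4 are best known as targets, did not pass the test. It gave 3007, 2655 and 2867 counts without and 3042, 3120 and 3035 counts with the knockdown, and the groups overlapped after scaling. The level was 170 ± 7.01 CPM in control and 172 ± 3.65 CPM in knockdown libraries (edgeR log2 fold change 0.02 with SE 0.044, adjusted p = 0.71), and the 95% interval allows 95.4% to 108% of the control level. With total-count scaling, which moved the median of all tested genes from 0.01 to 0.10 on the log2 scale, MLXIP was called at 0.11. Without control replicate 2 the value was -0.01. Gene counts measure transcripts and say nothing of where the MLXIP protein was in the cell.

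MLXIPL (ENSG00000009950), the form prominent in liver, had the lowest level of the 7 genes, with 55, 75 and 59 counts without and 69, 99 and 82 counts with the knockdown. The groups overlapped at 3.77 ± 0.720 and 4.68 ± 0.752 CPM (edgeR log2 fold change 0.31 with SE 0.19, adjusted p = 0.21). The interval is wide at this depth, from 94.1% to 164% of the control level. The log2 fold change was 0.20 without control replicate 1 or knockdown replicate 2 and 0.47 without control replicate 2, and it passed in none of these.

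MLX, the shared partner of both sensors, had 1205, 1128 and 1204 counts against 1156, 1225 and 1002. After scaling the groups did not overlap, as in 50.1% of all tested genes. The level was 70.4 ± 2.55 CPM in control and 63.3 ± 4.41 CPM in knockdown libraries (log2 fold change -0.15, edgeR adjusted p = 0.043). The call was lost with total-count scaling (-0.06), with upper-quartile scaling (-0.10), with a minimum mean of 0.1 CPM, with DESeq2 (adjusted p = 0.073), and without control replicate 2 or 3 or knockdown replicate 1 or 3, with -0.10 when knockdown replicate 3 was left out. MLX shares exons with PSMC3IP on the opposite strand.

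**Figure D2:**
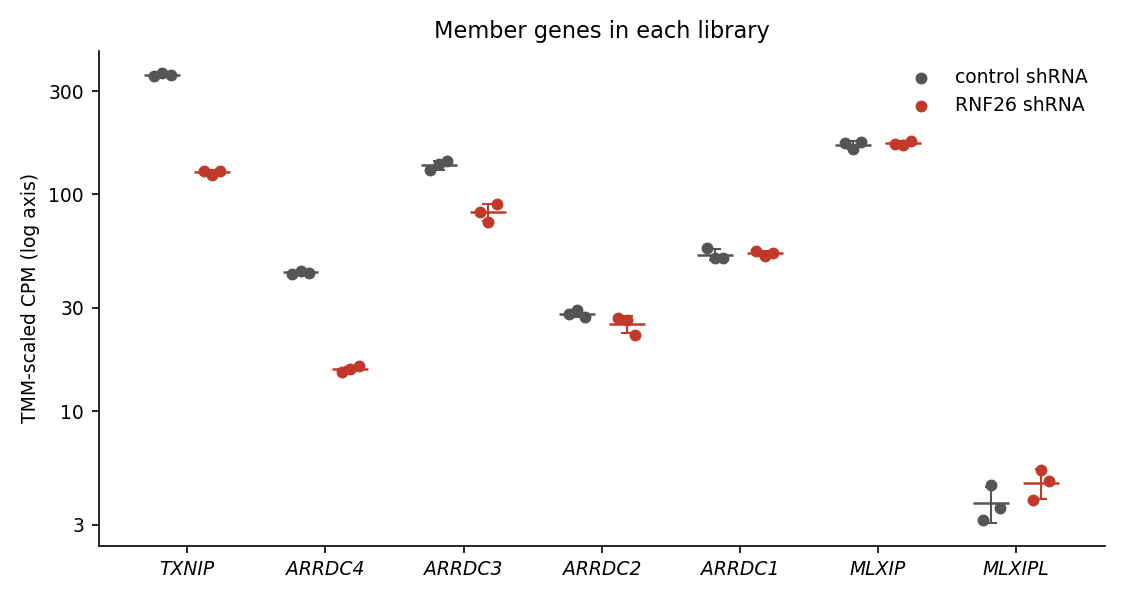
TMM-scaled CPM of the 7 genes (log axis) in the 3 control libraries (grey) and the 3 RNF26 shRNA libraries (red), with the mean as a line and bars of 1 SD. TXNIP, ARRDC4 and ARRDC3 are clearly apart, at 356, 43.7 and 137 CPM in control and 127, 15.7 and 82.9 CPM in knockdown libraries, while ARRDC1, MLXIP and MLXIPL overlap.

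**Figure D3:**
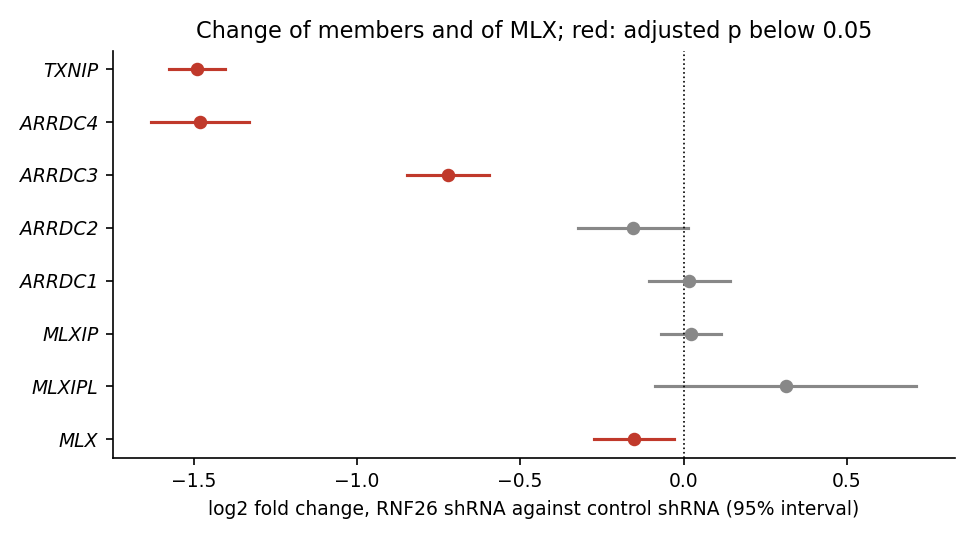
Log2 fold changes of the 7 genes and of MLX with 95% intervals from the edgeR fit. TXNIP (-1.49), ARRDC4 (-1.48) and ARRDC3 (-0.72) lie left of 0, MLX (-0.15) just left of it, and the intervals of the other 4 genes include 0.

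Of the 7 genes 3 were called lower and 0 higher, where 22.6% of all tested genes were lower and 18.9% higher. DESeq2 and limma also called 0 higher, as did edgeR at an unadjusted p below 0.05. Their median log2 fold change was -0.15, beside 0.01 over all tested genes, and it was -0.08 without knockdown replicate 3, -0.06 with total-count scaling and -0.43 at a minimum mean of 5 CPM, where MLXIPL was not tested. The calls of TXNIP, ARRDC4 and ARRDC3 held in all 16 other settings, with log2 fold changes of -1.50 to -1.40 for TXNIP, -1.50 to -1.39 for ARRDC4 and -0.79 to -0.63 for ARRDC3.

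Per kilobase of exon in GENCODE 29, TXNIP was the most abundant alpha-arrestin transcript in every library. In control libraries TXNIP had 98.2 ± 1.64 CPM per kilobase, followed by ARRDC3 (27.7 ± 1.31), ARRDC1 (13.8 ± 0.817), ARRDC4 (10.7 ± 0.183) and ARRDC2 (6.08 ± 0.229). In knockdown libraries the order was TXNIP (35.0 ± 0.882), ARRDC3 (16.8 ± 1.58), ARRDC1 (14.0 ± 0.413), ARRDC2 (5.45 ± 0.513) and ARRDC4 (3.85 ± 0.106), so ARRDC4 moved from the fourth place to the last. The summed level of the 5 genes was 154 to 158 CPM per kilobase in control and 72.2 to 76.7 in knockdown libraries. TXNIP supplied 62.7 ± 0.316% of that sum in control libraries and 46.6 ± 0.367% in knockdown libraries, while the share of ARRDC1 was 8.85 ± 0.631% in control and 18.7 ± 0.329% in knockdown libraries at an almost equal level of its own. MLXIP (12.2 ± 0.504 CPM per kilobase) and MLX (16.5 ± 0.598) were both far above MLXIPL (0.784 ± 0.150) in control libraries. The annotation the authors counted on is not stated, so the lengths may differ from theirs.

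**Figure D4:**
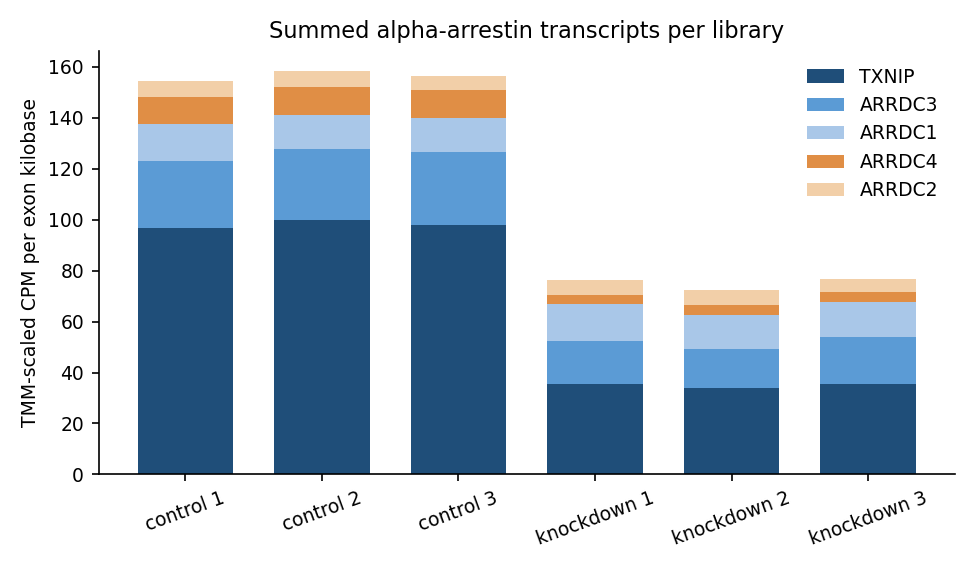
Summed level of the 5 alpha-arrestin genes in each library, in TMM-scaled CPM per exon kilobase, stacked by gene. The control bars reach 154 to 158 and the knockdown bars 72.2 to 76.7, and most of the difference is in the TXNIP segment, which averages 98.2 in control and 35.0 in knockdown libraries.

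The other genes of the pathway were taken from lists drawn up for these roles, and their members went in both directions. Each count of the main fit stands beside 22.6% lower and 18.9% higher among all tested genes. Other settings have other shares. Among those named here, the ligases NEDD4L, SMURF1 and SMURF2, the factors MAX, MXD3 and HBP1, and RGP1, ARRB1, TXNRD2, PRDX2, SLC2A1, SLC2A12, SLC37A4, HK1, HK2, ACLY, PFKFB2, BHLHE40, EGFR, STAM and TSG101 share exons with a gene on the opposite strand, so their values are uncertain to that extent. MXD1 shares exons on the same strand with SNRNP27, MXD3 with RAB24, MXD4 with MIR4800, SRXN1 with AL121758.1, STRADA with AC046185.1, SLC2A1 with AC099795.1 and TSG101 with YWHABP2, which a strand setting would not separate. Among 14 tested genes described as MondoA or ChREBP targets, TXNIP and ARRDC4 included, 7 fell, 5 rose and 2 did not pass, with a median of -0.20 (-0.05 without control replicate 2, -0.04 at a minimum mean of 0.1 CPM). Over all tested genes 22.6% fell and 18.9% rose. KLF10, a zinc finger repressor induced by TGF-beta and by glucose, had 5540, 5463 and 5351 counts against 2216, 2293 and 2283. It was 2.56-fold lower (log2 fold change -1.35, SE 0.042), and its groups did not overlap, as in 50.1% of all tested genes. Smaller falls were found for BHLHE40 (-0.44), HBP1 (-0.36) and PFKFB2 (-0.30) on the log2 scale. The 5 that rose were the lipogenic enzyme genes SCD (0.59), FASN (0.46) and ACLY (0.21), the glycolytic regulator PFKFB3 (0.28) and the pentose phosphate enzyme TKT (0.18). ACACA, the cytosolic acetyl-CoA carboxylase, was called lower, but control replicate 2 held 285 of its counts against 98 and 68 in the other control libraries. With all libraries its log2 fold change was -0.93 and without that one -0.05, and DESeq2 did not call it (adjusted p = 0.26), nor did limma, the robust fit, total-count scaling or the fit without any 1 knockdown library. PKLR, the liver pyruvate kinase and the classical ChREBP target, had no count in any library.

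Among 10 tested genes of the MLX and MAX network, which share the helix-loop-helix dimer interface, 5 fell, 1 rose and 4 did not pass (median -0.18), beside 22.6% lower and 18.9% higher of all tested genes. MXD1, a repressor that pairs with MAX and with MLX, had 721, 670 and 683 counts against 190, 159 and 192 and was 4.06-fold lower (log2 fold change -2.02, SE 0.089), with the exons it shares with SNRNP27 as a limit. MYC was 2.49-fold lower and MAX 1.52-fold lower, and MXD3 was 1.65-fold higher. MXD4 (-0.22) and MLX were the other calls. Both were lost with total-count and upper-quartile scaling and without knockdown replicate 1 or 3, and MXD4 also without control replicate 1.

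The list for glucose uptake and phosphorylation, which also holds the phosphatase G6PC3 and the translocase SLC37A4, showed no called fall. Of the 10 tested, 5 were higher, 0 lower and 5 not called (median 0.14). Of all tested genes 18.9% were higher and 22.6% lower. SLC2A1, a glucose transporter that TXNIP binds and the most abundant SLC2A gene of the list per exon kilobase, had 171 ± 8.35 CPM in control and 173 ± 2.71 CPM in knockdown libraries (log2 fold change 0.02, SE 0.044). HK1 and HK2, the hexokinases that make glucose 6-phosphate, had log2 fold changes of -0.08 and -0.11 and were not called. The 5 that rose were the transporters SLC2A12 (0.55), SLC2A6 (0.36) and SLC2A8 (0.25), the glucose 6-phosphate translocase SLC37A4 (0.41) and the phosphatase G6PC3 (0.19), on the log2 scale. SLC2A8 was no longer called without control replicate 2 or 3 or knockdown replicate 1, and G6PC3 without knockdown replicate 2. DESeq2 and limma also called 0 lower, as did edgeR at an unadjusted p below 0.05, but without control replicate 3 edgeR called 1 lower, HK1.

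NEDD4-family ubiquitin ligases, the partners that alpha-arrestins recruit, had 5 of 8 tested lower, 1 higher and 2 not passing (median -0.27), where 22.6% of all tested genes were lower and 18.9% higher. NEDD4L had 4094, 3806 and 3734 counts against 2109, 2067 and 2111 and was 1.96-fold lower (log2 fold change -0.97, SE 0.044). On the log2 scale SMURF2, which acts on TGF-beta receptors, had -0.78, ITCH -0.34 and SMURF1 -0.32, and WWP2 rose by 0.26. The value of NEDD4 itself was -0.21 on that scale, and total-count scaling ended its call.

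Among 12 tested cargo and vesicle partners of alpha-arrestins, 5 fell, 1 rose and 6 did not pass (median -0.10). The shares among all tested genes were 22.6% and 18.9%. On the log2 scale VPS4B, an ATPase of vesicle budding, had -0.59, the growth factor receptor EGFR -0.45 and the endosomal adaptor STAM -0.35. The call of ITGB4 (-0.12) was lost with total-count and upper-quartile scaling, and that of the iron transporter SLC11A2 (0.13) with DESeq2, without a filter, at a minimum mean of 0.1 CPM and without any library but control replicate 1. TSG101, the partner of ARRDC1, had 55.8 ± 1.27 and 51.9 ± 1.68 CPM and was not called.

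The thioredoxin system, to which TXNIP binds, had 6 of 18 tested lower, 5 higher and 7 not passing (median -0.03). Of all tested genes 22.6% were lower and 18.9% higher. TXNRD1, the cytosolic thioredoxin reductase, fell from 427 ± 19.7 to 242 ± 6.98 CPM (1.76-fold, log2 fold change -0.82, SE 0.042). Thioredoxin itself, TXN, fell from 457 ± 18.3 to 371 ± 5.56 CPM (1.23-fold), the sulfiredoxin SRXN1 was 1.58-fold lower and the glutaredoxin GLRX 1.34-fold lower. The 5 rises were small, from 0.15 for PRDX2 to 0.28 for TXNRD3 on the log2 scale. Of these only PRDX2 was called in all 16 other settings, and the number called higher ranged from 1 without knockdown replicate 2 to 8 with total-count scaling. Further counts of 2 were reached with DESeq2, without a filter, with a minimum mean of 0.1 CPM, and without control replicate 2, control replicate 3 or knockdown replicate 1. Over all tested genes the number called higher also moved, from 2785 to 2385 without knockdown replicate 2 and to 4449 with total-count scaling. The mitochondrial forms TXN2 (0.16) and TXNRD2 (0.20) were among the higher calls.

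Other arrestin-fold genes were mostly not called. Among the 6 tested, 1 was higher (RGP1, 0.13), 0 lower and 5 not called, with a median of 0.02. Over all tested genes the shares were 18.9% higher and 22.6% lower. The call of RGP1 was lost without a filter on low counts and without control replicate 2 or 3 or knockdown replicate 1 or 2. With total-count or upper-quartile scaling 3 were called higher. Those scalings also raised the number called higher over all 14766 tested genes, from 2785 to 4449 and 3742. The number lower was 1 with the robust fit and with the replicate number as a block (VPS26A under the block). It was also 1 without control replicate 1, control replicate 3 or knockdown replicate 3. ARRB1 and ARRB2, the beta-arrestins, had log2 fold changes of 0.24 and -0.18 that did not pass. ARRDC5, the remaining alpha-arrestin, had no count in any library. At an unadjusted p below 0.05 edgeR had 3 higher and 2 lower, and DESeq2 and limma each called 1 higher and 0 lower.

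The kinase AMPK, which phosphorylates TXNIP and marks it for degradation, had 2 higher, 2 lower and 6 not called among 10 tested subunits and upstream genes (median -0.09), about the shares of all tested genes (18.9% higher, 22.6% lower). The scaffold CAB39 of the LKB1 complex was 1.70-fold lower and the subunit PRKAB2 1.26-fold lower, while STRADA was 1.41-fold higher and the kinase CAMKK2 higher by 0.26 on the log2 scale. Of the inflammasome genes described with TXNIP, 2 of 4 tested fell and 2 rose. IL1B fell from 568 ± 17.6 to 300 ± 5.52 CPM (1.90-fold) and NLRP3, at 69, 46 and 52 against 38, 13 and 20 counts, was 2.48-fold lower. CASP1 (1.39-fold) and IL18 (1.34-fold) were higher.

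**Figure D5:**
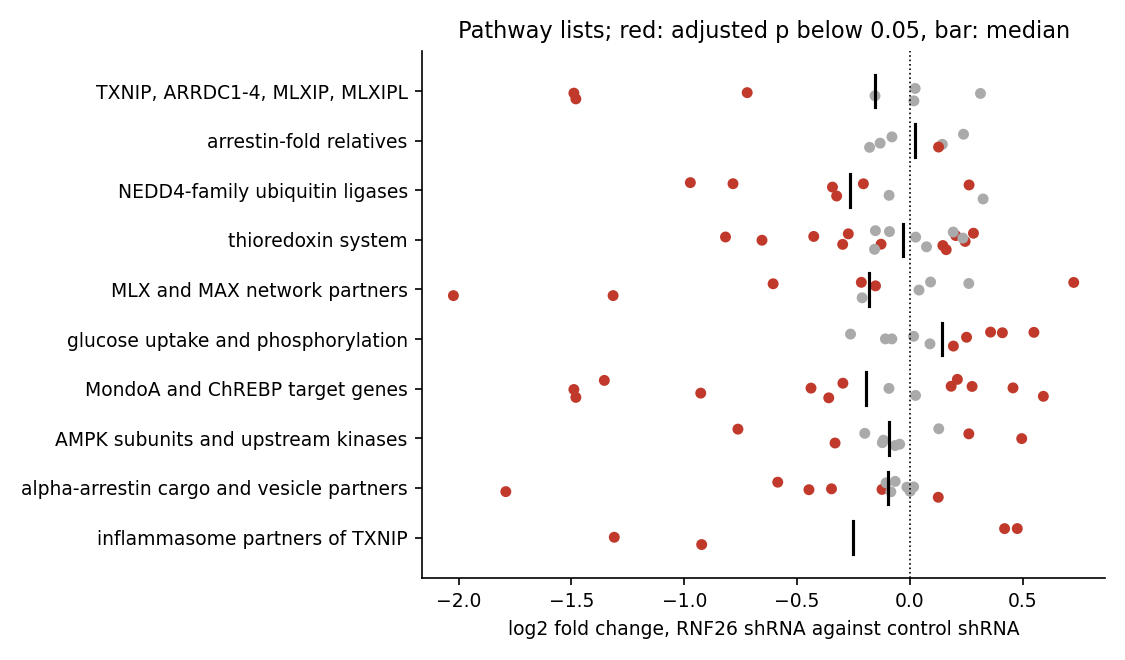
Log2 fold changes of the tested genes in each pathway list (x axis), with called genes in red, other genes in grey and the list median as a black bar. Medians range from -0.27 for the NEDD4-family ligases to 0.14 for glucose uptake and phosphorylation, and TXNIP and ARRDC4 sit together near -1.5 in the first row and in the row of MondoA and ChREBP targets.

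Genes with the profiles most like those of TXNIP, ARRDC4 and ARRDC3 over the 6 libraries were sought among 10015 genes with a mean of at least 10 CPM, by the root mean square difference of log2(CPM + 1) after subtracting the control mean. The measure mostly reads the size of the group difference and its spread. Nearest to TXNIP were the ectonucleotidase gene NT5E (0.033) and the non-coding LINC03061 (0.041), and ARRDC4 stood at place 4 (0.050). Nearest to ARRDC4 were FRMD6 (0.036) and, at place 2, TXNIP (0.050). In the edgeR fit the log2 fold change of ARRDC4 (-1.48) was closer to that of TXNIP (-1.49) than to that of FRMD6 (-1.39). The 1 added before the logarithm weighs more on a gene at the low level of ARRDC4. Nearest to ARRDC3 were ZBTB21 (0.049), PPTC7 (0.051) and KLHL11 (0.051), whose log2 fold changes were -0.74, -0.74 and -0.77.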

How the data were processed

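RNA sequencing libraries from cells labelled A498 (3 control, 3 RNF26 knockdown) were made with a strand-marking NEBNext kit, per the labels' protocols. The authors deposited 1 table of whole-number gene counts, although its name speaks of FPKM, with 2 blank rows that were left out. Genome build hg19 comes from the submitters' processing notes. The sources used here do not give the aligner, counter, annotation or strand setting. Libraries of a group differed by more than sampling noise (chi-square per degree of freedom 2.31 to 4.98). Genes with a mean of at least 1 CPM were fitted together with edgeR 4.0.16 (R 4.3.3), quasi-likelihood test, two-sided, TMM scaling, Benjamini-Hochberg adjustment over all tested genes and a threshold of 0.05. SE was derived from the fold change and its F statistic, and intervals are 95%. DESeq2 1.42.0, limma 3.58.1 on log2(CPM + 1), other scalings and filters, a robust fit, a replicate block and leaving out each library served as alternatives. Tested on simulated data for this comparison (14766 genes, 50 changed per fold size), recovery was 58% at the smallest fold simulated, 80% for 1.5-fold, 86% for 2-fold and 100% for 4-fold changes. Of 172 calls 10 were false. Far fewer genes were changed there than the 41.4% called in the data, and an error of scaling was not simulated. These rates may therefore not hold for the data.

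The 7 genes and all lists were chosen with earlier results of these data known. Named were the 7 genes, RNF26, up to 4 called members per list with the largest change (or 2 by smallest p), and the 3 nearest profiles. A few genes that this rule names are not reported here. Genes named to complete a count of 5 or fewer, MLX, and those given as background members of a list were chosen after their values were seen. Symbols were matched by Ensembl ID, exon lengths and overlaps from GENCODE 29 (GRCh38), without coordinates, and start-site windows from RefSeq.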

Additional observations from a re-analysis of the deposited data

How the results depend on the processing

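TXNIP, ARRDC4 and ARRDC3 stayed called lower and ARRDC2, ARRDC1 and MLXIPL stayed uncalled in all of the alternatives run that tested them. MLXIPL was not tested at a minimum mean of 5 CPM. Scaling by total counts moved the number of genes called higher from 2785 to 4449 and called MLXIP (log2 fold change 0.11, edgeR adjusted p = 0.038). Leaving out 1 library gave 2162 to 2587 genes called higher and 2797 to 3239 called lower. It gave log2 fold changes of -0.0100 to 0.0657 for ARRDC1 and -0.0122 to 0.0407 for MLXIP, so the sign of both is not fixed by these data. ARRDC1-AS1 changed sign with total-count scaling (0.0456) and upper-quartile scaling (0.0081). The replicate numbers gave no clear sign of pairing. Correlations of deviations between same-numbered libraries were 0.01, -0.03 and 0.09, and 3 of 6 libraries correlated best with their own number. With 3 libraries per group this check cannot exclude pairing. With the replicate number as a block 2935 genes were called higher and 3479 lower, against 2785 and 3332 in the main fit. No call of the 7 genes changed under the block. Depth limits MLXIPL most, with 55 to 99 counts per library. Total-count scaling moved list medians upwards (arrestin-fold relatives from 0.02 to 0.11, glucose uptake and phosphorylation from 0.14 to 0.23), with new values for the thioredoxin system (0.06), AMPK genes (close to 0), cargo and vesicle partners (close to 0), the MLX and MAX network (-0.09), NEDD4-family ligases (-0.17) and MondoA and ChREBP targets (-0.10). It left 3 genes called lower and 3 higher in the MLX and MAX network. The median of the inflammasome genes was -0.25 in the main fit and 0.43 at a minimum mean of 5 CPM, where NLRP3 was not tested.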
